A study of Homo sapiens with 9 samples.

Results

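The clustered histone genes are the genes whose symbols name a position in 1 of the 4 human histone gene clusters (HIST1 to HIST4) and a histone class. All 73 such symbols among the 23284 gene symbols of the RNA-Seq files were taken, whatever their level. Of these, 56 belong to HIST1, 13 to HIST2, 3 to HIST3 and 1 to HIST4. By class there are 6 symbols for the linker histone H1, 18 for H2A, 20 for H2B, 14 for H3 and 15 for H4. They include HIST1H2APS1 and HIST2H2BC, which are annotated as pseudogenes, and HIST2H2BA, whose current symbol is H2BP1. All were kept in the sums, and HIST2H2BC also stands in an H2A/H2B pair below. On the GRCh37 build the HIST1 genes with an annotated position lie on chromosome 6 between 25723625 and 27861669, the HIST2 genes on chromosome 1 between 149754245 and 149859515, the HIST3 genes on chromosome 1 between 228612546 and 228650805, and HIST4H4 on chromosome 12 between 14920933 and 14924065.

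RNA was sequenced from HT-29, an established human colon adenocarcinoma cell line grown as monolayers. All 9 cultures were grown in the same medium, and 3 replicate cultures each received the DMSO vehicle alone (0 µM, the control), 5 µM 5-Aza or 10 µM 5-Aza for several days. 5-Aza (5-Aza-deoxycytidine) is a cytidine analog that traps DNA methyltransferases once it is built into newly made DNA. The comparison of 5 µM with 0 µM asks what the drug changed, that of 10 µM with 5 µM what a higher dose changed, and that of 10 µM with 0 µM closes the series. The comparisons share samples, so they are not independent of each other. The labels describe the replicates as biological but do not say whether they were grown at different times, and p-values measure only the spread between these cultures.

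Histones package DNA into nucleosomes, in which DNA wraps around a core of H2A, H2B, H3 and H4 while H1 binds the linker between cores. Cells need new histones mainly while they copy their DNA, and the clustered genes are known for a burst of mRNA in S phase. These genes are short and mostly lack introns. Their mRNAs usually end in a stem-loop bound by SLBP in place of a poly(A) tail, although some members are also known with polyadenylated forms in differentiating or resting cells. The libraries were made from purified mRNA, so the level of a member here also depends on how its 3' end passes that purification, which was not tested.

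The stem-loop is shown because it sets these mRNAs apart from nearly all others. A 16-base pattern was searched, in which the first 6 bases start with GG and pair with the last 6 and the 4-base loop starts with a T or C, a T and a T or C. It stood within the last 100 bases of 59 of the 66 members with an annotated main transcript (89.4%), and of 69 of 55064 main transcripts of all genes (0.125%). The median member had 5 bases after it. In the following forms the paired stems are in capitals.
HIST1H1C, also in most H1, H2A, H2B and H3 members: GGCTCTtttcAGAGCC
HIST1H2BK, HIST1H2BD and HIST1H2BC: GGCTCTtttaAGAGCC
HIST1H4H and most H4 members: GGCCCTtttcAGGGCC
HIST2H2BE, an H2B member known with a polyadenylated form, had the same stem-loop as HIST1H1C, but its annotated transcript of 2224 bases ran on for 1729 bases after it.

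Many H2A and H2B genes lie head to head and share the sequence between their start sites. Counting start sites at most 1000 bases apart, 13 such H2A/H2B pairs with 26 members were found, 11 of them by their GRCh37 positions, with 193 to 288 bases between the start sites. The intervals below are printed on the plus strand of GRCh37, with the H2B gene to the left and the H2A gene to the right. Capitals mark CCAAT (a box bound by NF-Y), TATAAA (the TATA box) and ATTTGCAT (the octamer bound by POU2F1) on either strand, and neighbouring or overlapping marks run together. They are shown because the genes beside HIST1H2BK/HIST1H2AH and HIST1H2BC/HIST1H2AC differed far more in level than those beside HIST1H2BJ/HIST1H2AG.
HIST1H2BK/HIST1H2AH, chr6:27114635-27114884: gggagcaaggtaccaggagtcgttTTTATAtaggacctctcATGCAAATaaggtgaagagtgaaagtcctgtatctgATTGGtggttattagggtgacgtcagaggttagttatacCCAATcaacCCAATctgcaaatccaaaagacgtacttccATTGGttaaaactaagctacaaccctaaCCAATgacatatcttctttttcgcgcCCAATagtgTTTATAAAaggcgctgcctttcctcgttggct
HIST1H2BJ/HIST1H2AG, chr6:27100575-27100821: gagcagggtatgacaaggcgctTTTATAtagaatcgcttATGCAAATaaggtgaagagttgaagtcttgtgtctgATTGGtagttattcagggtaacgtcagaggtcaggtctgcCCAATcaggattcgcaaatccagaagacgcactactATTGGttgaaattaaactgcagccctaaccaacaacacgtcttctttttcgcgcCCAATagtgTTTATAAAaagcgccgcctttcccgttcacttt
HIST1H2BC/HIST1H2AC, chr6:26124155-26124399: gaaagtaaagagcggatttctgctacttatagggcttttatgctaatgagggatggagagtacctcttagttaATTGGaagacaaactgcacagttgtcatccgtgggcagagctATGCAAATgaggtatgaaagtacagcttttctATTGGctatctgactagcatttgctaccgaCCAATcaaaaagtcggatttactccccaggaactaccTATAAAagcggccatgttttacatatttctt
The first and second intervals needed 50 single-base edits to be made alike (80.0% identity over the longer), against a median of 50.4% over the 55 comparisons among the 11 intervals. In RefSeq promoters of 300 bases (GRCh38.p14), the CCAAT letters stood on either strand in 55 of 65 matched members (84.6%) and in 34.6% of 35116 promoters of all genes. The TATAAA letters stood in 43 of the 65 (66.2%, against 11.5%) and the octamer in 26 (40%, against 1.77%). CCAAT stood in every matched H1, H2A, H2B and H3 promoter but in 3 of 13 H4 promoters, and 25 of the 26 promoters with the octamer belonged to H2A or H2B members.

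The deposited values are FPKM, fragments per kilobase of transcript scaled to the mapped fragments of a library. They step in whole fragments at low levels, and the steps gave an estimated 15209862 to 28511803 fragments per library in the control, 26808999 to 31257388 at 5 µM and 11411121 to 24901296 at 10 µM. A library's FPKM values summed to between 3.69e+09 and 5.91e+09, so a value was used only relative to others. All 10 colon epithelium markers were above 0. The 9 markers of other cell types summed to 8574 to 12707 FPKM at 0 µM, 74424 to 91347 at 5 µM and 35144 to 38893 at 10 µM, against at least 27544500 for the colon markers. CD3E, a T cell gene, was at 0 in every control. The part of these markers in the histone results was not tested. In bulk RNA, fewer cells that make a transcript and less transcript per cell cannot be told apart.

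The 5 highest members, HIST1H2BK, HIST1H2AC, HIST1H2BD, HIST1H1C and HIST3H2A, held 45.4% of the summed mean FPKM of all members, and the 10 highest held 65%. Of these, HIST1H2BK, HIST1H2AC, HIST1H2BD and HIST1H1C are among the 6 members listed as known with polyadenylated forms. At the other end, 25 members had a mean under 10000 FPKM, 18 were at 0 in some of the samples, and HIST1H2AA and HIST1H2APS1 were at 0 in all 9. The spread between replicates grew as the level fell. In the control the median coefficient of variation was 8.76% for the 15 members with a mean of at least 100000 FPKM, 22.1% for the 33 members between 10000 and 100000, and 69.0% for the 23 lower members above 0. It was 30% for the highest of these sets at 10 µM. HIST2H2AA3 and HIST2H2AA4, HIST2H3A and HIST2H3C, and HIST2H4A and HIST2H4B are near-identical copies with the same value in every sample, and their separate levels are uncertain.

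**Figure D1:**
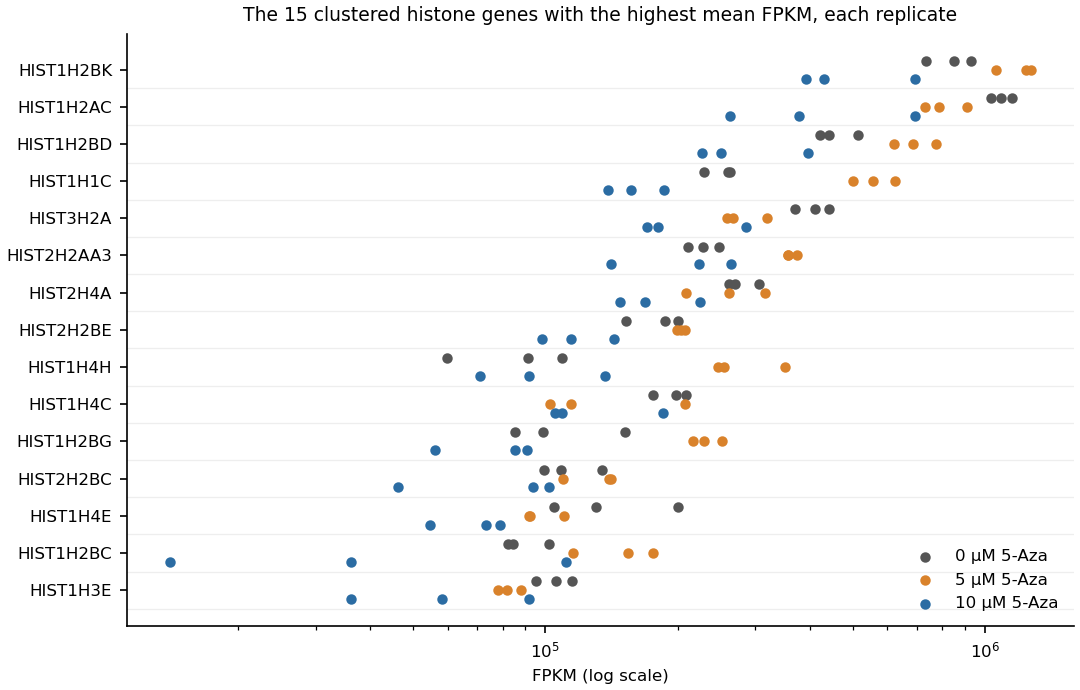
FPKM of each replicate (log x axis) for the 15 clustered histone genes with the highest mean, without HIST2H2AA4 and HIST2H4B, whose values equal those of HIST2H2AA3 and HIST2H4A. In HIST1H1C, HIST1H2BG and HIST1H4H the 5 µM replicates lie above all others, and in HIST1H2AC and HIST3H2A the 0 µM replicates do.

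The histone signal as a whole was higher at 5 µM and lower at 10 µM. The FPKM summed over all members was 6753930, 6379660 and 6094260 in the control and 7315460, 7644410 and 8272980 at 5 µM. At 10 µM 5-Aza it was 3447120, 5100140 and 3214340, so that none of the groups overlapped. The mean at 5 µM was 1.21 times that of the control, and the mean at 10 µM was 0.506 times that at 5 µM and 0.612 times that of the control. Replicate 2 of the 10 µM group lay above the other 10 µM cultures in the total and in every class. Over all genes, too, its FPKM summed highest of the group, to 5.08e+09 against 3.69e+09 and 4.2e+09, so its place is not particular to the histones. The histone sums are descriptions with no test, and they depend on how libraries are scaled. With each library divided by its estimated fragments, an alternative added after seeing the data, the ratios were 1.49, 0.574 and 0.853.

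The class sums differed in how far they went up at 5 µM. H1 stood at 2.02 times the control, H2B at 1.40 times, H3 at 1.20 times, H4 at 1.08 times and H2A at 0.985 times. A sum weighs the highest genes most, and the median log2 fold changes of the members stood in another order. They were 0.76 in H1, 0.47 in H2A, 0.45 in H2B and 0.00 in both H3 and H4. The sums of H2A and H4 overlapped with the control. The direction of the H2A sum turned to 1.21 times when libraries were divided by their fragments (1.01 times with median-of-ratios scaling). At 10 µM every class sum lay below 5 µM without overlap, at 0.350 (H1), 0.569 (H2A), 0.446 (H2B), 0.539 (H3) and 0.601 (H4) times the 5 µM mean. Against the control, the 10 µM sums were 0.561 to 0.705 times as high and did not overlap, and with libraries divided by their fragments they were 0.777 (H2A) to 0.996 (H1) times as high. Among the clusters, HIST1 and HIST2 were higher at 5 µM (1.26 and 1.19 times the control), while HIST3 was lower than the control under each scaling tried (0.725 times, and 0.896 times with libraries divided by their fragments).

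**Figure D2:**
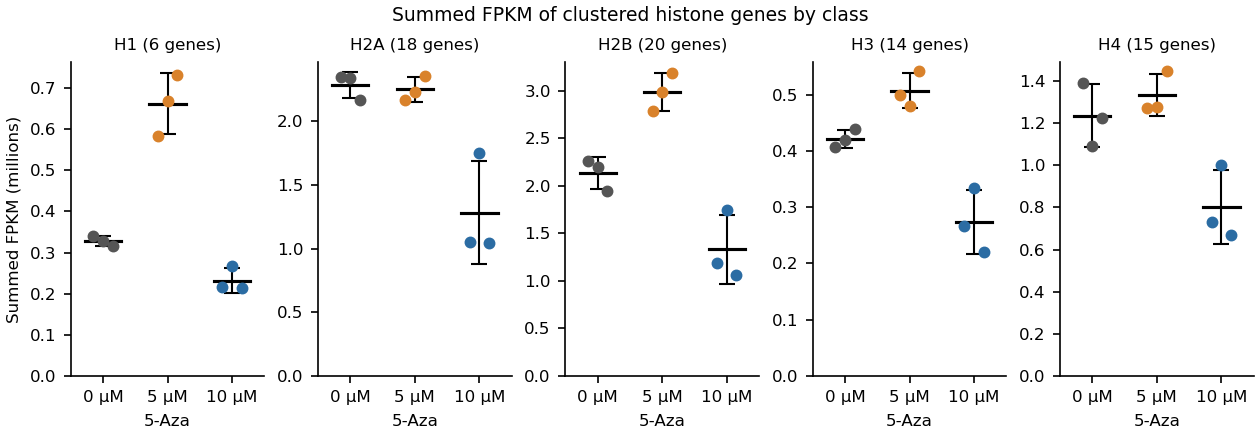
Summed FPKM (y axes from 0) of the members of each histone class at 0, 5 and 10 µM 5-Aza, with a point per replicate, the mean as a line and the SD as a bar (n = 3). The H1 sum at 5 µM is 2.02 times that of the control. The highest point of the 10 µM group is replicate 2 in every class, the library of that group with the largest FPKM sum over all genes.

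Single members were tested with limma on log2(FPKM + 1) in a fit of all genes. A gene was called where its p, adjusted over all genes by Benjamini-Hochberg, did not exceed 0.05 and its log2 fold change lay above 1 or below -1. From 0 to 5 µM, 7 of 71 members tested rose (9.86%), while 14.1% of all 20051 genes tested did, and 1 fell (1.41%, against 2.17%). The median log2 fold change was 0.37 over the members and 0.14 over all genes. From 5 to 10 µM, 16 of 71 members fell (22.5%), against 4.82% of all 20085 genes, and none rose, against 0.129%. The medians were -1.10 and -0.31. From 0 to 10 µM, 5 of 69 members fell (7.25%, against 3.40% of 18928 genes) and none rose (against 4.07%), with medians of -0.73 and -0.15. In neither comparison with 10 µM was any member higher at an unadjusted p under 0.05 in limma, whereas 44 and 27 members were lower at that level. Of all genes tested, 4980 of 20085 and 6724 of 18928 passed that level in either direction. Leaving out each replicate in turn gave 4 to 27 members down from 5 to 10 µM (4 without 5 µM replicate 3, 27 without 10 µM replicate 2) and 1 to 18 down from 0 to 10 µM (18 without 10 µM replicate 2). The share of all genes called down moved as well in these fits, between 0.89% and 9.35% and between 0.876% and 8.05%. From 5 to 10 µM, the calls of HIST1H2AE, HIST1H2AG, HIST1H2AI, HIST1H2AJ, HIST1H2BD, HIST1H2BF, HIST1H2BJ, HIST1H2BK, HIST1H3D, HIST1H3H and HIST1H4H were each lost when any 5 µM replicate was left out. Those of HIST1H1C, HIST1H2BB, HIST1H4A and HIST1H4F held whichever replicate was left out. However, HIST1H2BB, HIST1H4A and HIST1H4F were at 0 in all 10 µM libraries, without any spread there, so leaving out a replicate hardly tests their calls. They were not tested where at least 10 estimated fragments were required, because that filter took them out of the fit. For HIST1H4F this was because its length was not annotated.

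All called members belong to HIST1, which held 54 of the 71 members tested from 0 to 5 µM. In HIST2, limma called none of 13 in any comparison. Of all genes tested, 14.1%, 0.129% and 4.07% were called up and 2.17%, 4.82% and 3.40% down in the 3 comparisons. At such shares few or no calls fall among 13 genes, so their absence is not read as a trait of HIST2. At an unadjusted p under 0.05 in limma, 3 HIST2 members were higher at 5 µM than in the control. At that level 11 and 8 were lower at 10 µM than at 5 µM and than in the control. Over all genes, 9740 of 20051, 4980 of 20085 and 6724 of 18928 passed that level in these comparisons, in either direction. Of the 53 members above 0 in all samples, the group mean was lowest at 10 µM in 46 (86.8%), against 49.3% of the 15278 symbols above 0 in all samples. The mean was highest at 5 µM in 35 of the 53 (66.0%, against 38.8%). Other scalings moved all genes together, and the members' median less that of all genes stayed at 0.23 for 5 µM vs. 0 µM and between -0.79 and -0.78 for 10 µM vs. 5 µM under the 3 scalings tried. Members at 0 in a whole group were also set to a bound of 3 fragments over the group. Where the other group did not exceed that bound, or fragments were not recovered, the log2 fold change was set to 0. This was so for HIST1H2BA and HIST1H4G from 0 to 5 µM and for HIST1H2BA from 5 to 10 µM. From 0 to 10 µM it was so for HIST1H1A, HIST1H2BB and HIST1H4G. The members' medians were then 0.20, -0.98 and -0.65.

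**Figure D3:**
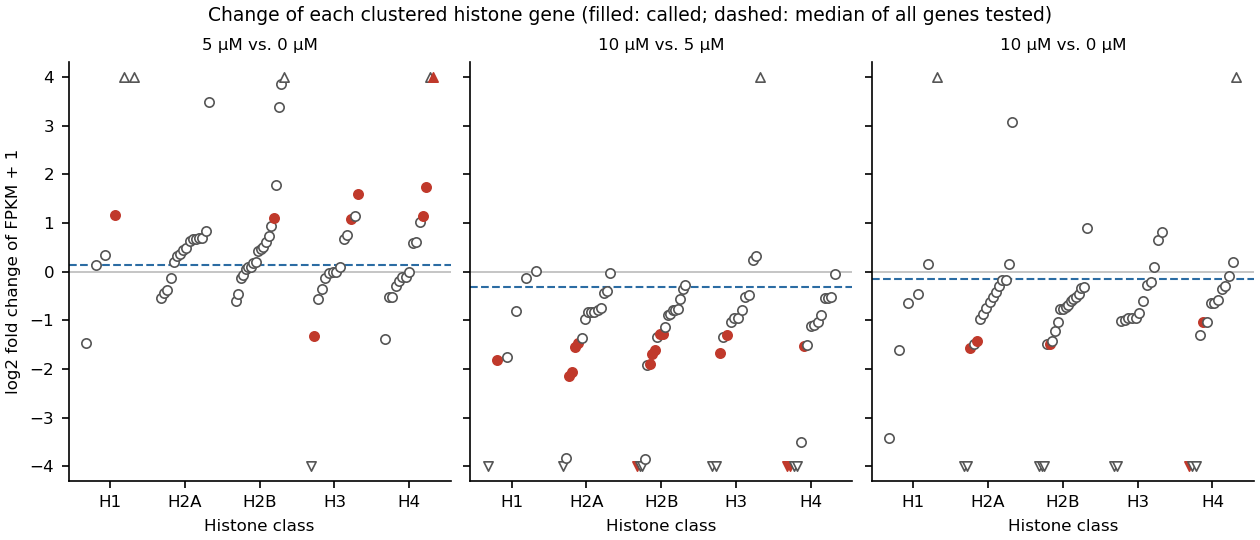
log2 fold change (log2(FPKM + 1), y axis, cut at 4 and -4 with triangles beyond) of every clustered histone gene tested, by class, in the 3 comparisons. Filled points are the called genes (7 up and 1 down, 16 down, 5 down), and the dashed line is the median of all genes tested (0.14, -0.31 and -0.15).

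HIST1H1C, which encodes the linker histone H1.2 and lies at 26055968 to 26056698 of chromosome 6 (minus strand), led the H1 class. In the control its FPKM was 260278, 262952 and 230014, compared with 500662, 557751 and 624568 at 5 µM. At 10 µM it was 138844, 185973 and 156417, and no group overlapped with another. These values rest on 177 to 334, 819 to 1093 and 120 to 254 fragments per library. HIST1H1C rose by 1.16 on the log2 scale from 0 to 5 µM (SE 0.10, adjusted p = 0.000556) and fell by 1.81 from 5 to 10 µM (SE 0.16, adjusted p = 0.00345). Its difference between 10 and 0 µM was -0.65 (adjusted p = 0.0289), within the 2-fold threshold.

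None of the other H1 genes was called in limma at 5 µM against the control (1 of them lower at an unadjusted p under 0.05, HIST1H1B). HIST1H1B (H1.5) was at 15870, 6131 and 4955 FPKM in the control and 3849, 2893 and 2056 at 5 µM. These groups did not overlap, and with 7 to 12 and 4 to 7 fragments per library its log2 fold change was -1.47 (adjusted p = 0.0651). It was called down with at least 10 estimated fragments required, with the replicate block and without 0 µM replicate 3. HIST1H1E, which encodes H1.4, had means of 42053 ± 8223, 46573 ± 11536 and 46614 ± 7503 FPKM (SD, n = 3) at 0, 5 and 10 µM, and its log2 fold changes were between 0.02 and 0.16. HIST1H1D (H1.3) had log2 fold changes of 0.35, -0.81 and -0.46, none of which passed the test. The testis linker histone gene HIST1H1T was at 0, 6911 and 3490 FPKM in the control, 22928, 7825 and 23170 at 5 µM and 3519, 5938 and 5256 at 10 µM. Its 5 µM values lay above all others, yet it rested on 12 to 40 fragments there and on 0 to 7 in the control, and its adjusted p was 0.206. HIST1H1C held 251081 of the 328484 FPKM of the H1 sum in the control (means) and 560994 of the 662101 at 5 µM.

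In the H2A class limma called no member from 0 to 5 µM, and 4 members were higher and 2 lower at an unadjusted p under 0.05. Of all genes, 9740 of 20051 passed that level in either direction. HIST1H2AC, the highest H2A gene, was at 1153640, 1090630 and 1035440 FPKM in the control, 732253, 784634 and 909965 at 5 µM, and 377164, 693178 and 262832 at 10 µM. Each group lay below the preceding one without overlap. It fell by 1.42 on the log2 scale from 0 to 10 µM (SE 0.33, adjusted p = 0.0318), and its log2 difference from 0 to 5 µM was -0.44 (adjusted p = 0.015). The call was lost when any replicate other than 10 µM replicate 2 was left out (log2 fold changes from -1.45 to -1.09), and without 10 µM replicate 2 the value was -1.79.

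The means of HIST3H2A stood in the same order, and those of HIST2H2AA3 did not. HIST3H2A stood at 410355, 441634 and 370448 FPKM in the control, 267110, 318888 and 259125 at 5 µM and 169937, 286318 and 180868 at 10 µM. All treated values lay below the control, and those of 5 and 10 µM overlapped. Its log2 fold changes were -0.54 (adjusted p = 0.0098) at 5 µM and -0.98 (adjusted p = 0.027) at 10 µM against the control, just inside the 2-fold threshold. HIST2H2AA3, which cannot be separated from its copy HIST2H2AA4, was at 211691, 248464 and 228366 FPKM in the control, 373083, 357430 and 356601 at 5 µM, and 141415, 265108 and 223969 at 10 µM. It was thus higher at 5 µM than in any other sample, with a log2 fold change of 0.66 against the control (adjusted p = 0.00117).

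From 5 to 10 µM, 4 H2A genes of HIST1 fell, with log2 fold changes of -1.47 (HIST1H2AE), -1.56 (HIST1H2AG), -2.06 (HIST1H2AI) and -2.15 (HIST1H2AJ) and adjusted p from 0.0108 to 0.0411. HIST1H2AI was at 40300, 35587 and 18873 FPKM in the control, 37230, 34608 and 57421 at 5 µM and 7047, 16350 and 8772 at 10 µM. Its 10 µM values lay below all others, and it also fell by 1.58 from 0 to 10 µM (adjusted p = 0.0447). This second call was lost without 0 µM replicate 1 or 2, without 10 µM replicate 1 or 3, and with libraries divided by their fragments. HIST1H2AJ was at 23906, 24417 and 26947 FPKM at 5 µM and at 5323, 8421 and 3976 at 10 µM. All 16 H2A members tested had a lower fitted level at 10 µM than at 5 µM, and so did 15181 of all 20085 genes tested.

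The H2B class held the highest member, HIST1H2BK, at 27114140 to 27114634 of chromosome 6 (minus strand). Its level in the control was 852402, 931973 and 736080 FPKM, against 1061800, 1243770 and 1271750 at 5 µM. At 10 µM it was 392731, 693681 and 430144 FPKM, and no group overlapped with another. It fell by 1.28 on the log2 scale from 5 to 10 µM (SE 0.24, adjusted p = 0.0236). This call, like that of HIST1H2BD, was also lost without 10 µM replicate 3. From 0 to 5 µM its log2 fold change was 0.51 (adjusted p = 0.0163). HIST1H2BD followed the same course, with 441332, 513637 and 420905 FPKM in the control, 622258, 684705 and 772374 at 5 µM and 227222, 396391 and 250425 at 10 µM, and fell by 1.29 from 5 to 10 µM (adjusted p = 0.0206).

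HIST1H2BG was the H2B member called in both directions. Its FPKM was 151566, 85105 and 98757 in the control, 230117, 216218 and 252235 at 5 µM, and 90739, 85310 and 56154 at 10 µM. Its 5 µM values lay above all others, while the control and 10 µM overlapped. It rose by 1.10 from 0 to 5 µM (SE 0.21, adjusted p = 0.00845) and fell by 1.62 from 5 to 10 µM (SE 0.20, adjusted p = 0.00729). The first call was lost without 0 µM replicate 2 and the second without 5 µM replicate 3. HIST1H2BJ and HIST1H2BF also fell from 5 to 10 µM, with log2 fold changes of -1.89 and -1.69. HIST1H2BB was called down as well, but it was at 0 in all 10 µM libraries and at 2916, 9206 and 10903 FPKM at 5 µM, so that its fitted fold change is no measure of size. HIST1H2BO fell by 1.48 from 0 to 10 µM (adjusted p = 0.0477), from 28082, 19927 and 25363 to 4735, 11985 and 11493 FPKM, a call that held only without 10 µM replicate 2 when single replicates were left out.

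HIST2H2BE, an H2B gene of the HIST2 cluster, varied little at 5 µM. It was at 200867, 186783 and 152969 FPKM in the control, 203395, 207375 and 199250 at 5 µM, and 114288, 143254 and 98521 at 10 µM. Its 10 µM values lay below all others, with a log2 fold change of -0.79 against 5 µM (adjusted p = 0.0314). HIST3H2BB overlapped in all comparisons, at 35932 ± 5068, 40617 ± 18972 and 27212 ± 11301 FPKM (SD, n = 3). All 20 H2B members tested had a lower fitted level at 10 µM than at 5 µM, and so did 15181 of all 20085 genes tested.

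The H3 class moved both ways from 0 to 5 µM. HIST1H3D was at 32131, 34452 and 32859 FPKM in the control, 73138, 68065 and 69042 at 5 µM, and 24120, 40969 and 23418 at 10 µM. It rose by 1.08 from 0 to 5 µM (SE 0.08, adjusted p = 0.000383) and fell by 1.3 from 5 to 10 µM (SE 0.24, adjusted p = 0.0229), and at 10 µM it overlapped with the control. RefSeq places its start site at that of HIST1H2AD, and fragments of these overlapping genes cannot be separated here. HIST1H3J rose by 1.60 from 0 to 5 µM (adjusted p = 0.0251), from 3 to 11 fragments per library to 22 to 42, but the call was lost without 0 µM replicate 1 or 3 or any 5 µM replicate.

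HIST1H3I was the only member of the 73 that was called down from 0 to 5 µM. It was at 11578, 17253 and 13556 FPKM in the control and at 6016, 6331 and 4499 at 5 µM, and fell by 1.33 (SE 0.25, adjusted p = 0.00722). These values rest on 4 to 10 and on 4 or 5 fragments per library, and HIST1H3I was not called with all 9 samples in a single fit. HIST1H3E, the highest H3 gene, was at 105284 ± 9929, 82602 ± 5254 and 61974 ± 28052 FPKM (SD, n = 3) at 0, 5 and 10 µM, and its log2 difference from 0 to 5 µM was -0.35 (adjusted p = 0.032). HIST1H3H was at 73479, 70077 and 63317 FPKM in the control, 118520, 92579 and 117640 at 5 µM and 18501, 55611 and 38000 at 10 µM, and fell by 1.68 from 5 to 10 µM (adjusted p = 0.0485).

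Nearly all H4 genes encode the same protein. HIST1H4H had the largest rise among called members above 0 in all samples. Its FPKM was 109126, 59704 and 91102 in the control, 254440, 247004 and 350307 at 5 µM, and 70931, 137019 and 92014 at 10 µM, which rest on 19 to 41, 119 to 190 and 19 to 58 fragments. Its 5 µM values lay above all others, and the control and 10 µM overlapped. It rose by 1.74 from 0 to 5 µM (SE 0.25, adjusted p = 0.0026) and fell by 1.54 from 5 to 10 µM (SE 0.26, adjusted p = 0.0182), a call that was also lost without 10 µM replicate 3. HIST1H4D also rose, by 1.14 (adjusted p = 0.0406), from 49571, 29547 and 18572 to 70065, 58553 and 71273 FPKM, but its call was lost without 0 µM replicate 2 or 3 or any 5 µM replicate.

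Among the remaining H4 members above 0 in all samples, limma called HIST1H4E alone. HIST1H4E fell by 1.04 from 0 to 10 µM (adjusted p = 0.0402), from 130446, 104906 and 200726 to 73314, 78869 and 54758 FPKM, and this call too held only without 10 µM replicate 2. HIST2H4A, which shares its values with HIST2H4B, was at 279691 ± 24028, 262447 ± 53250 and 180267 ± 39769 FPKM (SD, n = 3), with a log2 fold change of -0.65 from 0 to 10 µM (adjusted p = 0.0473). HIST4H4 was at 46110, 20359 and 44988 FPKM in the control, 54312, 58836 and 46289 at 5 µM and 51398, 49744 and 9033 at 10 µM, with 4 to 35 fragments per library and adjusted p values from 0.188 to 0.779.

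For 2 H4 members, calls rest on a group at 0. HIST1H4A, on chromosome 6 from 26021877 to 26022278, had 2, 1 and 3 fragments in the control, 3, 6 and 5 at 5 µM, and 0 in all 10 µM libraries. Set against the limit that 0 allows at 10 µM (3 fragments over the group), its mean was 3.22 times that limit at 5 µM and 2.25 times in the control. These ratios leave out the counting error of the few fragments in the other groups, so they do not bound the fold change. HIST1H4F was at 0 in all control and 10 µM libraries and at 4095, 4310 and 1914 FPKM at 5 µM, which would be 2, 2 and 1 fragments. Its calls rest on these 5 fragments, and its mean at 5 µM was 1.08 times the same limit for the control.

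Of the 4 testis-type genes, 2 were at or near 0. HIST1H2AA was at 0 throughout, and HIST1H2BA, its head-to-head partner, was at 2986 FPKM in 5 µM replicate 2 and at 0 elsewhere. HIST3H3 was at 5702, 11330 and 6676 FPKM in the control, 4741, 4989 and 5540 at 5 µM and 6730, 0 and 3351 at 10 µM, with 0 to 6 fragments per library and no called difference. HIST1H1T, described above, had the highest value among the 4, at 23170 FPKM. None of the 4 was called in the main limma fits, and the only one past an unadjusted p of 0.05 was lower at 10 µM than at 5 µM. Other settings did call HIST1H1T. It was called up from 0 to 5 µM with 1000 in place of 1 added to the FPKM. From 5 to 10 µM it was called down with at least 10 estimated fragments required and without 5 µM replicate 2.

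The 6 members known with polyadenylated forms summed to 3010450, 3068110 and 2659740 FPKM in the control, 3236190, 3632820 and 3953510 at 5 µM, and 1286340, 2224130 and 1212320 at 10 µM, with no overlap between groups. Of these members, HIST1H1C rose from 0 to 5 µM (16.7%, against 14.1% of all genes). From 5 to 10 µM 3 fell, HIST1H1C, HIST1H2BD and HIST1H2BK (50%, against 4.82%), and HIST1H2AC fell from 0 to 10 µM (16.7%, against 3.40%). HIST1H2BC was at 101932, 82135 and 84335 FPKM in the control, 115824, 154589 and 175604 at 5 µM and 36091, 111657 and 13977 at 10 µM. Its 10 µM replicates differed most among themselves, all lay below 5 µM, and its log2 fold change of -1.93 from 5 µM had an adjusted p of 0.143.

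Genes on the 2 sides of a shared interval differed widely in level. Over the 12 H2A/H2B pairs in which both were above 0, the ratio of the higher to the lower mean FPKM ran from 1.01 (HIST1H2AD and HIST1H2BF) to 88.1 (HIST1H2BK and HIST1H2AH), with a median of 2.95, and the H2B gene was the higher in 5. HIST1H2AH had 16913, 8961 and 3168 FPKM in the control, 4219, 16278 and 10516 at 5 µM and 7985, 8421 and 9940 at 10 µM, or 2 to 11 fragments per library, beside the 392731 to 1271750 FPKM of HIST1H2BK. HIST1H2BJ and HIST1H2AG, on the sides of the interval whose sequence is 80.0% alike, differed by a ratio of 1.35. The ratio was 8.03 for HIST1H2AC over HIST1H2BC and 8.69 for HIST3H2A over HIST3H2BB.

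In 1 pair, the partners had changes of opposite sign at 5 µM that each had an adjusted p under 0.05. HIST1H2BC had a log2 fold change of 0.72 (adjusted p = 0.0188) where HIST1H2AC had -0.44 (adjusted p = 0.015), and the difference between the 2 was not tested. Of the 12 pairs in which both were tested, the fitted changes had the same sign in 7 from 0 to 5 µM and in 12 from 5 to 10 µM, where 67 of all 71 members and 15181 of all 20085 genes were lower. HIST1H2BG and HIST1H2AE, with 1.10 and 0.84 from 0 to 5 µM and -1.62 and -1.47 from 5 to 10 µM, were a pair with similar changes.

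**Figure D4:**
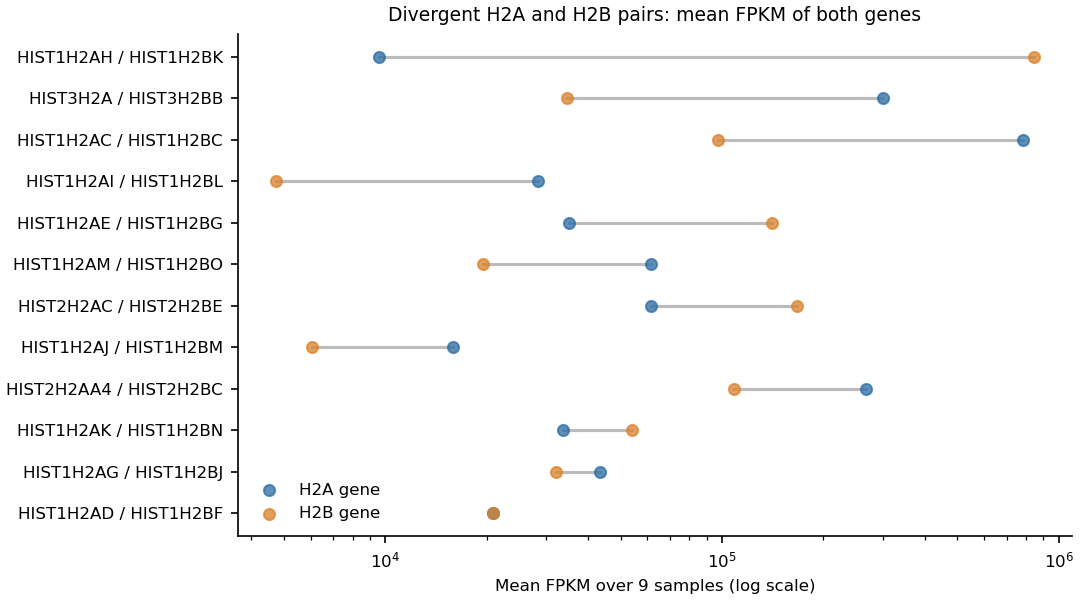
Mean FPKM over 9 samples (log x axis) of the H2A and H2B genes of 12 head-to-head pairs, ordered by the ratio of the means. The ratio falls from 88.1 for HIST1H2BK and HIST1H2AH to 1.01 for HIST1H2AD and HIST1H2BF, whose points coincide.

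Genes that work with the clustered histones were taken as lists for comparison. Of 22 S-phase genes, 10 rose from 0 to 5 µM (CCNE1, CCNE2, CDC45, CDC6, CDT1, E2F1, GINS2, MCM2, RRM2 and TK1) and none fell (45.5% up, against 14.1% of all genes tested), with a median log2 fold change of 0.76. From 5 to 10 µM none rose and 2 fell (9.09%, against 4.82% of all genes), CCNA2 (cyclin A2, log2 fold change -1.61) and CDC6 (a replication licensing factor, -1.3), and the median was 0.04 where that of the clustered histones was -1.10. From 0 to 10 µM, 10 rose (CCNE1, CCNE2, CDC45, CDT1, E2F1, GINS2, MCM2, MCM4, MCM5 and TYMS) and CCNA2 fell (45.5% up and 4.55% down, against 4.07% and 3.40% of all genes). PCNA, the sliding clamp of DNA replication, was at 268641, 386610 and 418331 FPKM (means at 0, 5 and 10 µM), with adjusted p values from 0.0224 to 0.746 and no call.

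Of 23 genes for the synthesis and processing of histone mRNA, none was called from 0 to 5 µM (2 higher and 7 lower at an unadjusted p under 0.05 in limma) or from 5 to 10 µM (1 higher and 1 lower). Over all genes, 9740 of 20051 and 4980 of 20085 passed that level in either direction. LSM11, a subunit of the U7 snRNP, fell by 1.37 from 0 to 10 µM (adjusted p = 0.0254). SLBP, the stem-loop binding protein, was at 268972, 268209 and 234767 FPKM in the control, 308752, 418757 and 356481 at 5 µM and 217984, 376495 and 323350 at 10 µM. Its 5 µM values lay above the control (log2 fold change 0.48, adjusted p = 0.0247), and those at 10 µM overlapped with both. NPAT, the S-phase coactivator of histone genes, had log2 fold changes between -0.14 and 0.11. Of 18 histone chaperone and acetyltransferase genes, ASF1B, CHAF1A and CHAF1B, which deliver new H3 and H4 to replicated DNA, rose at both doses against the control, by 1.11 to 1.96, and from 5 to 10 µM none was called (4 lower at an unadjusted p under 0.05). Those that rose made up 16.7% of the list at each dose, against 14.1% of all genes at 5 µM and 4.07% at 10 µM.

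The genes listed as replacement histones, whose symbols name no HIST cluster and which include testis variants, behaved differently from each other. Of 21 listed, 19 were in the files and 17 were tested from 0 to 5 µM. CENPA, the centromeric H3, rose by 1.02 from 0 to 5 µM and fell by 2.35 from 5 to 10 µM, from 43540, 56794 and 55565 FPKM at 5 µM to 8971, 16238 and 7095 at 10 µM, and it was also called down at 10 µM against the control (21950, 32813 and 22616 FPKM). H1F0, the linker histone H1.0, fell at both doses against the control, from 3008700, 3164510 and 2422880 FPKM to 1070200, 1286150 and 1172100 at 5 µM (log2 fold change -1.28) and 575823, 956690 and 654430 at 10 µM (-2.0). H2AFB1, an H2A variant gene known from testis, rose by 4.62 from 0 to 5 µM and was still 1.79 higher at 10 µM than in the control. From 5 to 10 µM, CENPA, H1FNT, H2AFB1 and H2AFB2 fell (4 of 18 tested, 22.2%, against 4.82% of all genes). H2AFB1 and H2AFB2 are near-identical copies, and H1FNT was at 0 in all 10 µM libraries and at 1458 FPKM or less at 5 µM, so these levels are uncertain.

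Other replacement genes changed less. H2AFX and H2AFZ, the genes for H2A.X and H2A.Z, had log2 fold changes of 0.07 and 0.03 at 5 µM, and H3F3B, a gene for H3.3, of -0.64 (adjusted p = 0.00755). H3F3A, the other main gene for H3.3, was near 0 in some libraries of the control and of 10 µM (1.085 to 1.655 FPKM) and at 9221 to 34251 in the others, and its levels are uncertain.

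**Figure D5:**
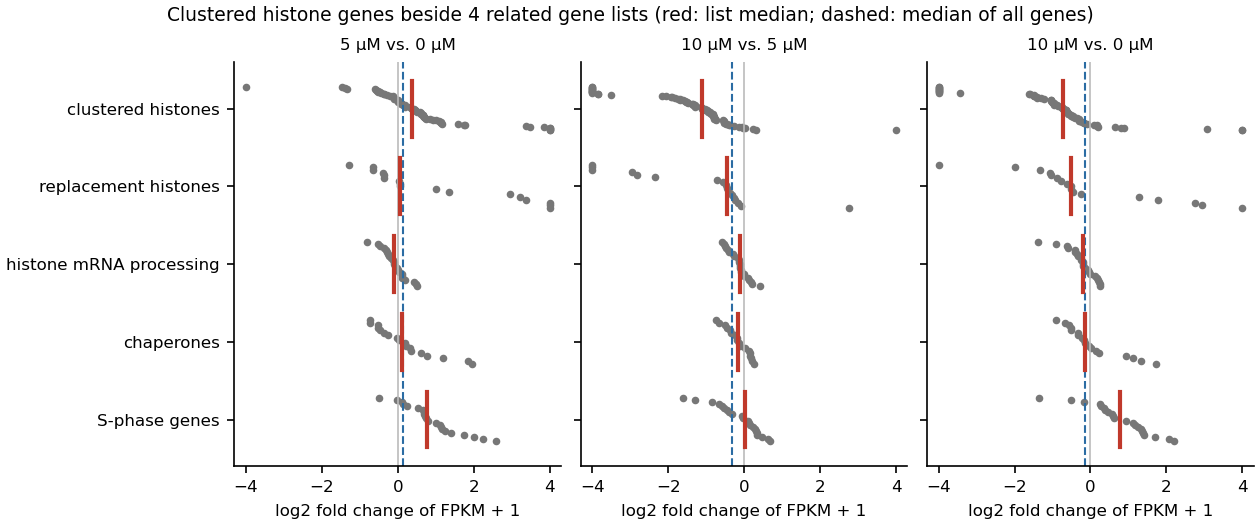
log2 fold changes (x axis, cut at 4 and -4) of the clustered histone genes and of 4 gene lists in the 3 comparisons, with a point per gene, the list median in red and the median of all genes dashed. In the second panel the clustered histones have a median of -1.10 and the S-phase genes one of 0.04.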

How the data were processed

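RNA of 9 HT-29 cultures (3 at each dose) was sequenced as 100-base read pairs. The authors used FASTX-Toolkit to filter reads, TopHat to align to hg19 and Cufflinks to estimate FPKM per gene. These FPKM values were deposited per sample, and the library term is not given in the sources used here. The sample labels gave the dose and the replicate number.

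Members were all symbols with a HIST1 to HIST4 name, and repeated symbols were summed. Genes with a value of at least 10 in either group were tested on log2(FPKM + 1) with limma 3.58.1 in R 4.3.3 (lmFit, eBayes with trend), using the 6 samples of each comparison and no replicate block. Adjustment (Benjamini-Hochberg) ran over all genes tested. Fold changes are on the log2(FPKM + 1) scale. The scripts were tested on simulated data. Figures were drawn with matplotlib 3.10.9, and tables were handled in pandas 2.3.3 with numpy 2.4.6.

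Depth was estimated from steps of whole fragments: at 11 microRNA genes of 110 bases, all 39 values above 0 were whole (tolerance 0.01). Of the 73 members, 62 stepped in whole fragments (tolerance 0.03), and 39 of the 56 with an annotated length lay within 20% of the relation of step to length. Fragments are printed for these, and for HIST1H4F, whose length was not annotated. Such steps cover counting error only. Positions are those of the GENCODE annotation on GRCh37, which holds no position for HIST1H2BF, HIST1H2BG, HIST1H4F and HIST2H2BA. Promoters are from RefSeq on GRCh38.p14 and matched 65 members.

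Named members were those called (the 12 largest where more were called in a direction and the groups did not overlap; HIST1H2AE, among the remainder, was added after its values were seen, as were HIST1H1A, HIST1H1B and members named for their pair), the 3 highest of each class, the testis-type genes, those known with polyadenylated forms, and HIST3 and HIST4. The members and lists were chosen with earlier results of these data known. Alternatives covered the pseudocount, filters, thresholds, samples in the fit, the block, scaling, repeated symbols and each replicate left out.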

Additional observations from a re-analysis of the deposited data

How the results depend on the processing

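For 5 µM vs. 0 µM, 7 members were called up and 1 down (14.1% and 2.17% of all genes). With no fold threshold limma called 16 up and 4 down (21.3% and 17.7% of all genes). Treat against a 2-fold change gave 1 up (HIST1H4F) and 0 down (7.3% and 0.349%). With libraries divided by their estimated fragments, 11 were up (18.1%). Down calls were 2 with at least 10 estimated fragments (2.66%) and 0 with all 9 samples in a single fit (2.02%). For 10 µM vs. 5 µM (16 down, 4.82% of all genes), treat called 4 (1.86%). These were HIST1H1C, and HIST1H2BB, HIST1H4A and HIST1H4F, which were at 0 in all 10 µM libraries. For 10 µM vs. 0 µM, 5 were down (3.4% of all genes). The count was 1 with no filter on low values (2.88%), 9 with no fold threshold (9.71%) and 1 with treat (0.0845%). It was 11 with all 9 samples in a single fit (4.06%) and 3 with median-of-ratios scaling (1.5%). With libraries divided by their estimated fragments, a scaling chosen after seeing the data, it was 1 (0.56%). Where 1 was left, it was HIST1H4A, which was at 0 in all 10 µM libraries. The causes were not tested.

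Leaving out each replicate in turn gave 5 to 8 up and 1 to 2 down for 5 µM vs. 0 µM (12.1% to 15.2% and 2.03% to 2.54% of all genes). It gave 4 to 27 down for 10 µM vs. 5 µM (0.89% to 9.35%) and 1 to 18 down for 10 µM vs. 0 µM (0.876% to 8.05%). The highest counts, 27 and 18, came without 10 µM replicate 2, where 9.35% and 8.05% of all genes were called down. The count of 4 came without 5 µM replicate 3, those without 5 µM replicates 1 and 2 were 6 each, and that without 10 µM replicate 3 was 10. For 10 µM vs. 0 µM, the count was 1 (each time HIST1H4A) without 0 µM replicate 1, 10 µM replicate 1 or 10 µM replicate 3, and 2 without 0 µM replicate 2 or 3. For 5 µM vs. 0 µM, 2 were down without 0 µM replicate 2 or 3.

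The replicate numbers did not pair the samples: deviations from the group means correlated by -0.0743 to 0.0860 between samples with the same number and by -0.156 to 0.1 between others. With the replicate block, 6 members were called up and 2 down for 5 µM vs. 0 µM (12.7% and 2.06% of all genes). For 10 µM vs. 5 µM 9 were down (2.03%), and for 10 µM vs. 0 µM 3 were down (3%).

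With libraries divided by their estimated fragments, the summed FPKM at 5 µM was 1.49 times the control over all members, and 2.47 (H1), 1.21 (H2A), 1.72 (H2B), 1.48 (H3) and 1.32 (H4) times by class. At 10 µM it was 0.853 times the control over all members, and 0.996 (H1), 0.777 (H2A), 0.871 (H2B), 0.908 (H3) and 0.906 (H4) times. Median-of-ratios scaling gave 0.831 for H1 at 10 µM. No called log2 fold change of a named member changed sign under any alternative run. The filters, thresholds, single fit and replicate block leave the fitted difference as it is. Only the pseudocount, scaling, repeated symbols and replicates left out could change it. Ratios without a test did cross 1: H2A at 5 µM (0.985, against 1.01 with median-of-ratios scaling), HIST2 at 10 µM against the control (0.728, against 1.02 with libraries divided by their fragments) and HIST4 at 10 µM (0.988, against 1.15 and 1.38 with these scalings). Over the log2 fold changes of the named genes, 48 lost a call, 24 gained one and 1139 kept their side of the threshold where all replicates were used, and 69 lost, 15 gained and 531 kept it where 1 was left out. Depth limits the low members: 14 of the 62 with whole fragments never reached 10.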

Other observations

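The HIST1 cluster shares its span of chromosome 6 (25723625 to 27861669, GRCh37) with genes that are not histones. Of 23 such genes tested from 0 to 5 µM, 5 were called up (21.7%, against 14.1% of all genes tested) and 1 down (4.35%, against 2.17%), with a median log2 fold change of 0.59 (all genes 0.14). The 6 were BTN1A1, BTN2A2, BTN3A1, BTN3A2, SLC17A4 and ZNF204P, 4 of them butyrophilin genes. From 5 to 10 µM limma called none of the 23 and the median was -0.46, while the HIST1 histone genes had a median of -1.35 with 16 of 54 called down. From 0 to 10 µM, 2 of 21 were called, BTN3A1 and LINC00240, both up (9.52%, against 4.07%).

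HIST1H1A, a linker histone gene, had 0, 17 and 8 fragments in the 5 µM libraries, 0, 0 and 2 in the control and 0 in all 10 µM libraries. Its mean at 5 µM was 5.84 times the limit that 0 allows at 10 µM (3 fragments over the group), without the error of that mean. The 5 µM replicates differed widely, and limma did not call HIST1H1A (adjusted p = 0.191).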
